A study of Mus musculus with 19 samples.

Results

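Long noncoding RNAs (lncRNAs) that reach a solid level in CD11b+ brain cells are the subject of this report. They were chosen on measured values, as the rows of the count table that GENCODE mouse release 39 types as lncRNA, that lie on autosomes, and whose mean level over all 19 libraries was at least 10 CPM (counts divided by the column total and scaled to 1000000). The rule found 158 genes among 56980 rows, of which 11140 are lncRNAs and 10362 are autosomal lncRNAs. The lowest member was A830008E24Rik at 10.05 CPM, followed by Mir22hg at 10.19 CPM and Gm45472 at 10.20 CPM. Just outside lay Ppnr at 9.99 CPM, 5830432E09Rik at 9.93 CPM and Gt(ROSA)26Sor at 9.89 CPM. Every member had at least 5 counts in each library, and all 158 passed the filter on low counts. The rule used the level alone and not the direction of any comparison.

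The libraries come from male mice aged 3 to 4 months, with a gene trap in Park7 that removes the protein DJ-1 (*PARK7*/DJ-1 KO) or with intact Park7 (wildtype), backcrossed to C57BL/6NCrl. Mice were taken 6 h after an intraperitoneal injection of lipopolysaccharide (LPS, 4 µg/g body weight), a bacterial wall component that activates microglia, or of PBS as the vehicle. The PBS-injected mice are called baseline here. CD11b+ cells, mostly microglia, were isolated with magnetic beads from brains without olfactory bulb and cerebellum, 1 library per mouse. The LPS groups held 5 mice of each genotype, and the baseline groups 5 KO and 4 wildtype. The gene trap is carried in the germline and so is not limited to microglia. Park7 lay between 20.6 and 32.1 CPM in the wildtype libraries and between 0.457 and 5.38 CPM in the KO libraries.

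Total counts per library ran from 11936364 to 22788884, so that 3 counts correspond to 0.132 to 0.251 CPM. On the second principal component wildtype baseline library 1, wildtype LPS library 1 and KO LPS library 5 lay above the rest of their groups and KO LPS library 1 below its group. This component held 18.8% of the variance. Summed microglia markers ran from 25270 to 40570 CPM at baseline and from 10570 to 17000 CPM after LPS, with 9 of 9 markers lower in each genotype. Summed neutrophil and monocyte markers ran from 36.2 to 222 CPM at baseline and from 169 to 651 CPM after LPS. Of 10 border macrophage markers 6 were lower and 1 higher in each genotype, with median log2FC values of -1.06 in wildtype and -1.13 in KO. Of 10 endothelial markers 5 were lower in each, and 1 was higher in wildtype and 2 in KO, with medians of -1.08 and -1.17. The summed endothelial markers had a median of 1041 CPM at baseline and 1113 CPM after LPS in wildtype. In KO these medians were 910 and 929 CPM. In bulk cells, fewer cells of a type and less RNA per cell cannot be told apart, and the part of these shifts in the results below was not tested.

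LncRNAs are transcripts without a long coding frame, and many act where they are made. Some form nuclear bodies or bind chromatin, such as Malat1 in nuclear speckles, Neat1 in paraspeckles and Kcnq1ot1 at an imprinted locus. Others are host genes, from whose introns small nucleolar RNAs (snoRNAs, guides for the modification of ribosomal RNA) or microRNAs are cut, and a further set lies within, opposite or next to a protein-coding gene. LPS binds Tlr4 on myeloid cells and sets off NF-κB and interferon programmes.

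The members took between 0.774% and 1.58% of the counts of a library, and held 74.9% of all lncRNA reads. Malat1 alone made up 61.0% of the reads of the members, with a mean of 7450 CPM. Only 11 members exceeded 100 CPM, and 88 lay under 20 CPM. The next by level were Kcnq1ot1 at 191 CPM, Norad at 187 CPM, Neat1 at 184 CPM, Gm2629 at 180.0 CPM, Oip5os1 at 140 CPM, E230029C05Rik at 133 CPM and AI506816 at 130 CPM. Per kilobase of annotated exons the order changed. Malat1 still led with 945 CPM per kb, whereas Norad had 37.5, Neat1 8.21 and Kcnq1ot1 2.03 CPM per kb. These lengths come from GENCODE release 39, while counting used an older Ensembl annotation in which models can be shorter. The median SD between libraries of 1 group was 0.41 on the log2 scale, close to the 0.40 of all genes tested.

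The first question was how these lncRNAs respond to LPS within each genotype. In wildtype mice 39 members rose and 44 fell (edgeR quasi-likelihood test, adjusted p under 0.05 and |log2FC| of at least 0.5). Over all 18739 genes tested, 18.4% rose and 17.4% fell by the same rule. In KO mice 48 members rose and 42 fell, against 20.1% and 19% of all genes. Their log2FC had a median of -0.08 in wildtype and 0.05 in KO, and that of all genes -0.06 and -0.01. The same members were called in both genotypes in 78 cases, 38 higher and 40 lower, and none was called in opposite directions. As shares of the members, 24.7% rose and 27.8% fell in wildtype and 30.4% and 26.6% in KO. The protein-coding genes past the same level gave 25.2% and 19% in wildtype and 25.9% and 20.4% in KO. Of the members, 147 had the same sign in both genotypes. Each genotype was compared with its own baseline libraries. The level that chose the members averages over both conditions, so a member under 10 CPM at baseline entered through its LPS libraries and had to be higher there, and the reverse holds for a member under 10 CPM after LPS. Of the 33 members that averaged under 10 CPM at baseline, 23 rose in wildtype and 28 in KO, and of the 24 under 10 CPM after LPS, 21 and 20 fell. Of the other 101 members, at or over 10 CPM in both conditions, 16 rose and 23 fell in wildtype and 20 and 22 in KO. The counts of members are therefore a description, and nothing is read from them against the shares of all genes.

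**Figure D1:**
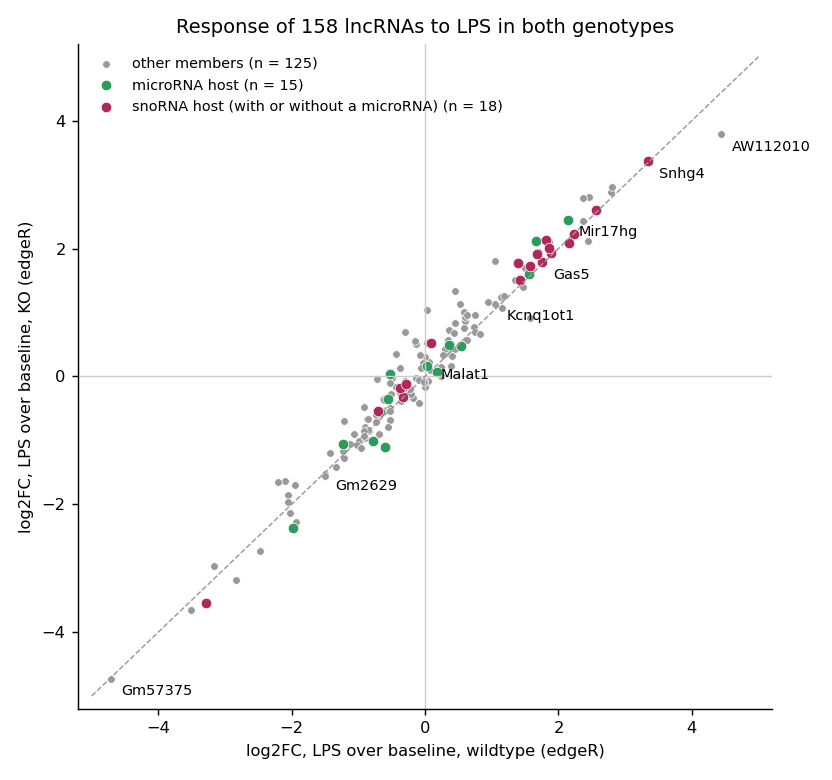
Each point is 1 of the 158 lncRNAs; the horizontal axis is its log2FC after LPS over baseline in wildtype mice and the vertical axis the same in KO mice, from edgeR. Points lie along the dashed line of equal change, from Gm57375 at -4.71 and -4.73 to AW112010 at 4.44 and 3.78, and 12 of the 18 snoRNA hosts (dark red) lie at the upper right, while A830008E24Rik lies at the lower left.

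AW112010 had the largest rise. It is an interferon- and LPS-induced transcript of myeloid cells, annotated as noncoding, that was later found to be translated from a noncanonical start. It lies on GRCm39 at chr19:11021549-11033246 on the minus strand, with no protein-coding gene within 5 kb. At baseline its 9 libraries ran from 3.56 to 5.52 CPM in both genotypes. AW112010 is therefore a member through its LPS libraries and had to be higher there. After LPS the wildtype libraries had 61.2, 35.1, 52.6, 145 and 215 CPM, and the KO libraries 44.4, 55.0, 65.6, 70.5 and 69.2 CPM. All LPS libraries thus lay above all baseline libraries, and 2 wildtype libraries lay above all KO libraries. The log2FC was 4.44 ± 0.44 (SE) in wildtype, adjusted p = 2.0e-07, and 3.78 ± 0.39 in KO, adjusted p = 2.3e-07. Its promoter is shown because AW112010 had the largest rise among the members. The sequence runs from 250 bases before the RefSeq start to 50 bases from it, on GRCm38.p6 at chr19:11050517-11050816, minus strand, and capitals mark the single match of the NF-κB consensus, read on the opposite strand, 70 to 61 bases before the start.
AW112010 promoter: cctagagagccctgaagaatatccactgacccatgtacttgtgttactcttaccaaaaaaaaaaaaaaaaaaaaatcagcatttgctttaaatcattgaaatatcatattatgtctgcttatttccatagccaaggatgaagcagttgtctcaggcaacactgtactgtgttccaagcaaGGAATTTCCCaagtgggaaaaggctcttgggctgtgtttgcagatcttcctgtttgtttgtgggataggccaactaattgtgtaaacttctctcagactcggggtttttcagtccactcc
The consensus was searched on both strands. It matched in 5.14% of the promoters of all 27025 symbols and in 6 of the 72 members with a promoter in the table. Of the members with a promoter it matched 2 of 21 that rose in both genotypes and 2 of 15 that fell. A match is a description of these letters and not of binding.

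Other large rises were, among others, those of Snhg4, described with the snoRNA hosts below, Gm20559, AI504432, AI506816, Gm17024, Gm42047 and Gm43305. Gm20559 went from 5.61 ± 1.81 (SD, n = 4) to 39.2 ± 10.3 CPM (n = 5) in wildtype and from 4.55 ± 0.97 to 35.5 ± 8.9 CPM in KO. AI506816, which holds a snoRNA, rose from 36.6 ± 4.3 to 216 ± 21 CPM in wildtype and from 36.9 ± 4.4 to 224 ± 73 CPM in KO, the steepest change among the 8 lncRNAs of highest level. Gm43305 rose by a log2FC of 2.37 in wildtype, but the KO LPS library 3 alone reached 80.2 CPM while the other KO LPS libraries stayed at or under 31.3 CPM. In all, 12 members rose and 7 fell by at least 4-fold in both genotypes, and the share of all genes with such changes is not given here. Of the rises named in this paragraph, all but AI506816 averaged under 10 CPM at baseline. The level rule fixed their direction, so nothing is read from the count of 4-fold changes.

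The largest fall was that of Gm57375, on chromosome 11. Its baseline libraries had 25.3, 13.7, 27.5 and 26.5 CPM in wildtype and 18.4, 17.8, 20.4, 29.2 and 25.8 CPM in KO. After LPS it stayed at or under 1.97 CPM in every library. The groups did not overlap in either genotype, and the log2FC was -4.71 ± 0.45 in wildtype and -4.73 ± 0.44 in KO, adjusted p = 1.2e-07 and 6.5e-08. Gm57375 is a member through its baseline libraries and had to be lower after LPS, so these values are no separate support for its fall. Gm30329, on chromosome 8, went from 29.5 ± 5.8 to 2.56 ± 1.197 CPM in wildtype, and A830008E24Rik, on chromosome 1, from 17.3 ± 1.8 to 1.75 ± 0.79 CPM. Gm57303, Gm56745, 2610203C22Rik, Gm34589 and 2610035D17Rik fell by log2FC values between -3.16 and -2.10 in wildtype and between -3.19 and -1.64 in KO. Like Gm30329 and A830008E24Rik, they averaged under 10 CPM after LPS, so the level rule fixed their direction as well. Gm2629, the fifth by level, fell from 267.8 ± 42.7 to 94.1 ± 32.7 CPM in wildtype and from 268.6 ± 78.2 to 93.4 ± 20.1 CPM in KO, adjusted p = 4.2e-05 and 2.0e-05. The microglia markers, with a median change of -1.76 on the log2 scale for wildtype and -1.43 for KO, moved the same way, and their part in these falls was not tested.

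Among the nuclear and chromatin lncRNAs, 10 of 13 listed genes are members. Of these 2 rose and 1 fell in wildtype, and 3 rose and 1 fell in KO, where 18.4% and 20.1% of all genes rose and 17.4% and 19% fell. Malat1 did not pass the test in either genotype, with 7462 ± 1308 CPM at baseline and 7803 ± 1203 CPM after LPS in wildtype, a log2FC of 0.06 ± 0.25. Its adjusted p was 0.87 in wildtype and 0.50 in KO. Kcnq1ot1, the antisense RNA of the imprinted Kcnq1 domain, rose from 124 ± 25 to 257 ± 40 CPM in wildtype and from 118 ± 40 to 259 ± 87.6 CPM in KO, with log2FC values of 1.05 ± 0.26 and 1.14 ± 0.24. Kcnq1 itself, which shares 834 exon bases on the other strand, averaged 1.44 and 1.42 CPM at baseline in wildtype and KO and was lower after LPS, at 0.335 ± 0.223 and 0.250 ± 0.166 CPM, which is near the level of 3 counts, so that no fold is given. Pvt1, next to Myc, rose by 1.34 ± 0.25 and 1.501 ± 0.236. Oip5os1, also known as Cyrano, fell by 0.84 and 0.86, adjusted p = 0.0061 and 0.0031.

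Neat1 is the scaffold of paraspeckles. Its wildtype libraries had 87.9, 136, 111 and 182 CPM at baseline and 276, 159, 195, 242 and 209 CPM after LPS, so that the groups overlapped. In KO they had 98.6, 72.4, 90.0, 204 and 186 CPM at baseline and 155, 193, 303, 315 and 302 CPM after LPS, again with overlap. The log2FC was 0.74 ± 0.30 in wildtype, adjusted p = 0.057, and 0.96 ± 0.28 in KO, adjusted p = 0.0091. The interaction of genotype and LPS, which tests whether these differ, did not pass for any member. Norad, a Pumilio-binding cytoplasmic RNA, had log2FC values of 0.46 and 0.42, under the fold threshold. Neat1 in wildtype passed under 6 alternative settings, among them DESeq2. Of 8 listed paraspeckle proteins, 4 rose in wildtype and 3 in KO, among them Sfpq by 0.56 and 0.55, where 25.2% and 25.9% of the protein-coding genes at this level rose.

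The snoRNA hosts formed the next group. These genes make spliced RNAs that are mostly unstable, since ribosomes start on them and nonsense-mediated decay removes them, while the snoRNAs are cut from the introns. Of 20 listed hosts, 11 are members, and 10 of these 11 rose in each genotype, where 18.4% and 20.1% of all genes rose. Snhg1, Snhg4, Snhg5, Snhg7 and Snhg16 averaged under 10 CPM at baseline, so that they are members through their LPS libraries and had to be higher there. Of the 6 listed hosts at or over 10 CPM in both conditions, 5 rose in each genotype. The list was chosen with earlier results of these data known. The exception was Snhg14, a transcript of neurons. Gas5 held 22.6, 26.6, 18.6 and 21.2 CPM in the wildtype baseline libraries and 105, 54.1, 70.0, 72.5 and 72.9 CPM after LPS. In KO it held 17.6, 18.4, 19.7, 21.5 and 23.1 CPM at baseline and 38.4, 73.1, 55.2, 73.0 and 106 CPM after LPS, so that the groups lay apart in both genotypes. The log2FC of Gas5 was 1.75 ± 0.23 and 1.78 ± 0.22, adjusted p = 6.6e-06 and 1.7e-06.

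Snhg4 rose furthest, from 3.42 ± 0.36 to 34.9 ± 6.6 CPM in wildtype and from 3.10 ± 0.55 to 32.0 ± 10.3 CPM in KO. A protein-coding gene model of the same name shares 246 exon bases with it on the same strand and rose by 3.25 and 3.403, so that reads of the pair could be split by the counting. Snhg16 rose by 2.16 and 2.08, Snhg17 by 1.89 and 1.93, Snhg1 by 1.85 and 2.02, Zfas1 by 1.82 and 2.13, Snhg15 by 1.68 and 1.92, Snhg7 by 1.57 and 1.73, Snhg12 by 1.42 and 1.502, and Snhg5 by 1.39 and 1.78, in wildtype and KO. Of the 9 listed hosts under the level threshold, Snhg3, Snhg6, Dancr and Epb41l4aos rose in both genotypes, and Snhg8, Snhg9, Snhg10, Snhg18 and Snhg20 did not pass. All 8 listed core proteins of snoRNA particles rose in both genotypes, led by Nop58 at 2.35 and 2.54 and Nop56 at 2.27 and 2.53. In both genotypes this was also so for 5 of 10 listed nonsense-mediated decay factors, led by Smg5 at 1.04 and 1.11. Of the protein-coding genes at the level of the members, 25.2% and 25.9% rose.

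**Figure D2:**
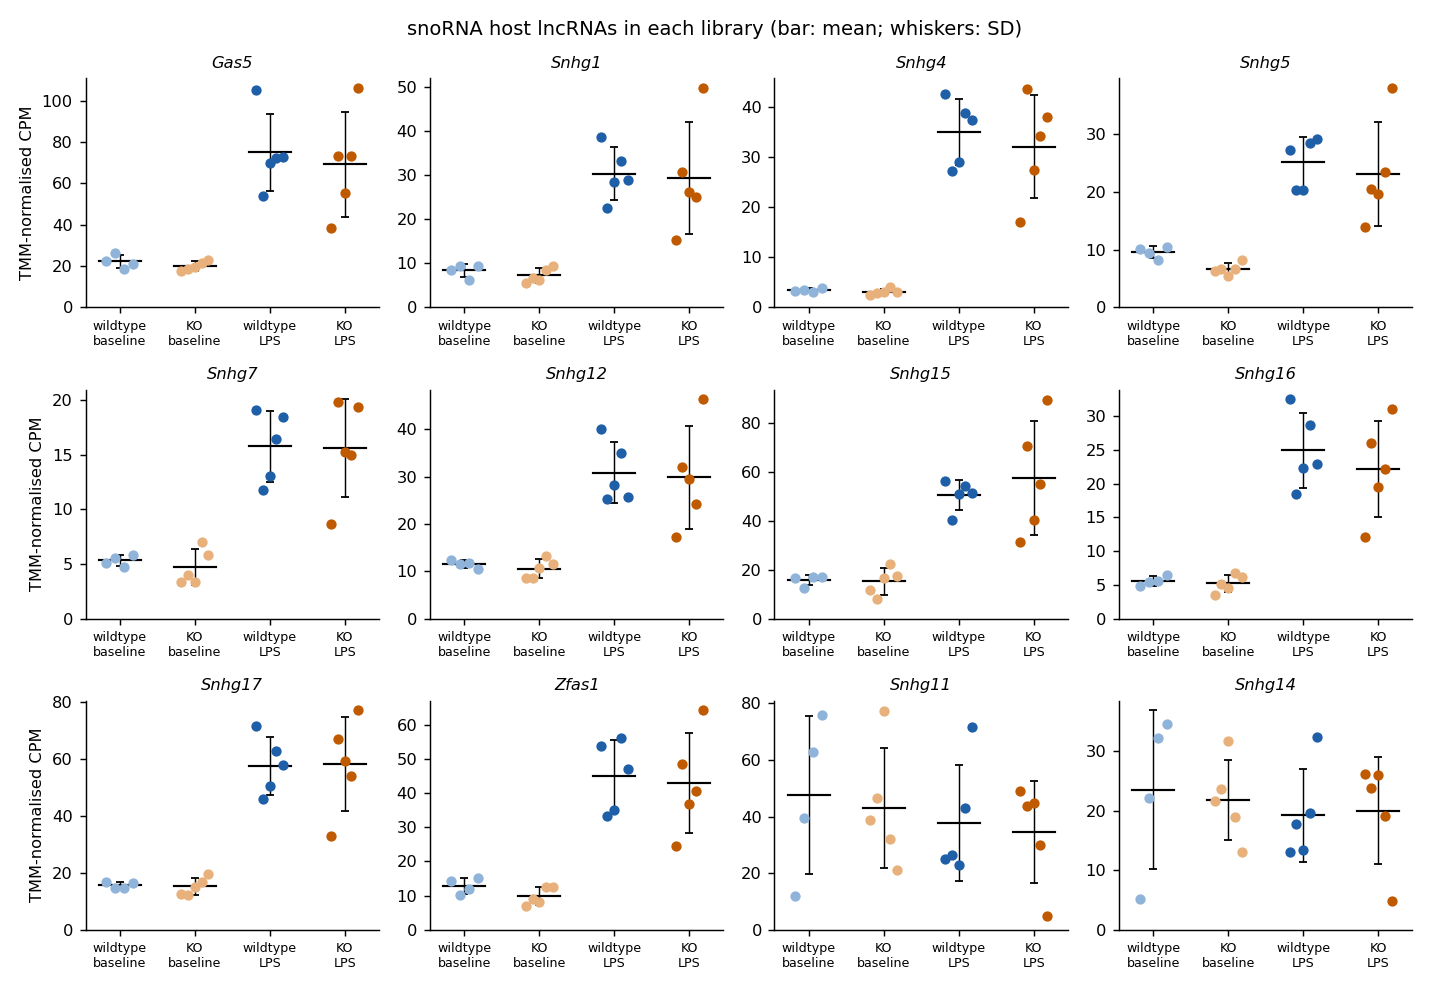
CPM after TMM normalisation of 12 snoRNA host lncRNAs in every library, by group; points are mice, bars the mean and whiskers the SD. The LPS libraries of Gas5, Snhg4 and Snhg16 lie above all baseline libraries, whereas Snhg11 and Snhg14 overlap between all groups.

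By the annotation instead of the list, 18 members hold a snoRNA on their own strand, 271 in all, of which 208 lie in Snhg14. Of these 18, 12 rose in wildtype and 12 in KO, while 2 fell in wildtype and 1 in KO. Over all genes tested, 18.4% and 20.1% rose and 17.4% and 19% fell. Among the hosts that rose, 6 averaged under 10 CPM at baseline, and the level rule fixed their direction. Both hosts that fell averaged under 10 CPM after LPS, where it did the same. Of the 10 hosts at or over 10 CPM in both conditions, 6 rose and 0 fell in each genotype. The falls were A830008E24Rik in both genotypes and Gm29170 in wildtype. The 1110038B12Rik host rose by 2.24 and 2.23, and 2410006H16Rik had log2FC values of 0.09 and 0.53 and did not pass the test. Many snoRNA hosts start with a run of C and T, the 5′ terminal oligopyrimidine tract, known from ribosomal protein genes. The start windows of these hosts are therefore shown, except for Snhg4, Gm29170 and A830008E24Rik, from 10 bases before to 20 bases from each RefSeq start on GRCm38.p6, 5′ to 3′, with the longest run of C and T in capitals.
Snhg1, chr19:8723477-8723506, plus strand: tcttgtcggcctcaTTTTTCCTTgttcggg
Snhg12, chr4:132308668-132308697, plus strand: ttctcagTCCTTTCTCgcttcatccgcggt
Snhg16, chr11:116671650-116671679, plus strand: gcgcaagcgcgatctcgTCCTTTCCgaggt
AI506816, chr5:23712648-23712677, minus strand: cctggcgccctgCTCTTCCgccgcggcgcg
1110038B12Rik, first start, chr17:34952452-34952481, minus strand: gcggcacacgggTCTCTTTgtgcacccgcc
1110038B12Rik, second start, chr17:34952449-34952478, minus strand: gcacacgggTCTCTTTgtgcacccgcccac
Snhg5, chr9:88522878-88522907, minus strand: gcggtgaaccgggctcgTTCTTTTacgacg
Gas5, first start, chr1:161034591-161034620, plus strand: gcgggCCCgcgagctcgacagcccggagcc
Gas5, second start, chr1:161035156-161035185, plus strand: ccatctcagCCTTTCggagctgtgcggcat
Snhg7, chr2:26640225-26640254, minus strand: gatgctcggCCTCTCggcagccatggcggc
Snhg17, first start, chr2:158361503-158361532, minus strand: agcgcccatcgtgaagaccacagTTTCCTg
Snhg17, second start, chr2:158361490-158361519, minus strand: aagaccacagTTTCCTgtcgcgtggatgtg
Snhg15, chr11:6528741-6528770, minus strand: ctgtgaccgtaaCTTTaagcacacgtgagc
Zfas1, chr2:167062924-167062953, plus strand: tgcgCCCCgggcggccgcaggtctcggctg
2410006H16Rik, chr11:62602867-62602896, plus strand: cgccgTCTTTCTCTgcggccatcatgggat
Rian, chr12:109603935-109603964, plus strand: cagctatggctcactgCCCCTCagggggca
Snhg11, chr2:158375703-158375732, plus strand: tgcggcaCTCactcacgcactcagcctgct
Snhg14, chr7:60450158-60450187, minus strand: gagtgtgaTTagtcaagtcagtgcagcagg
Taking the longest run of any start of a gene, 6 of the 11 hosts that rose in both genotypes and have a start in the table carried a run of at least 7 bases. The same holds for 20.5% of all 27025 symbols, for 20 of the 72 members with a start, for 5 of the 15 members that fell in both genotypes and for 1 of the 10 other members that rose in both. The run of 2410006H16Rik is as long as that of Snhg1, though 2410006H16Rik did not pass the test. Windows that are rich in C and T hold longer runs in any gene, so these letters describe the starts and no more.

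Of 13 listed microRNA hosts, 6 are members, and 2 of the 6, Mir17hg and Mir22hg, rose in both genotypes. Both stayed under 10 CPM in every baseline library and are members through their LPS libraries, so nothing is read from this count. Mir17hg, the host of the miR-17 to miR-92a cluster that is known as a target of Myc, had 4.17, 4.42, 5.52 and 7.82 CPM in the wildtype baseline libraries and 23.7, 17.5, 23.5, 27.3 and 29.1 CPM after LPS. In KO it had 3.68, 3.79, 6.15, 6.39 and 7.08 CPM at baseline and 15.8, 36.2, 29.01, 28.9 and 38.9 CPM after LPS, so that all LPS libraries lay above all baseline libraries. Its log2FC was 2.14 ± 0.28 in wildtype and 2.45 ± 0.26 in KO, adjusted p = 4.8e-06 and 3.0e-07. Mir22hg rose by 1.55 ± 0.34 and 1.61 ± 0.32. Mir142hg, whose microRNA marks cells of the haematopoietic lineage, stayed at 89.9 ± 9.3 and 91.7 ± 30.9 CPM in wildtype, and Dleu2 at 87.7 ± 14.9 and 98.8 ± 23.5 CPM. Mir99ahg and Mir100hg did not pass the test either.

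By the annotation, 17 members hold 38 microRNAs on their own strand. Of these 17 members, 5 rose and 3 fell in wildtype and 4 rose and 4 fell in KO. Over all genes tested, 18.4% and 20.1% rose and 17.4% and 19% fell. Snhg4, Mir17hg, 4833445I07Rik and Mir22hg, which rose in both genotypes, averaged under 10 CPM at baseline, and these counts are not read as a result about the hosts. Among the falls were Gm3764, a host of miR-9, by 1.24 and 1.06 and Gm6277 by 1.99 and 2.37. In wildtype Gm3764 ran from 17.3 to 84.1 CPM at baseline, lowest in library 1, and from 16.6 to 30.5 CPM after LPS, with overlap. In KO it ran from 33.9 to 42.0 CPM at baseline and from 3.25 CPM, in library 5, to 31.6 CPM after LPS, without overlap. Outside the list, 4833445I07Rik, which holds Mir191 and Mir425, rose by 1.67 ± 0.31 and 2.12 ± 0.29, though the KO LPS library 5 stood at 46.0 CPM against at most 20.8 CPM in the others of its group. Of the let-7 hosts 4 are members, and Mir99ahg and Mir100hg, with let-7c-1 and let-7a-2, had log2FC values of -0.56 and -0.68 in wildtype and -0.35 and -0.56 in KO without passing. Lncppara, with let-7c-2 and let-7b, had 18.8, 21.6, 19.3 and 24.03 CPM in the wildtype baseline libraries and 14.6, 12.7, 11.9, 8.13 and 13.47 CPM after LPS, with no overlap. It fell by 0.78 and 1.01 on the log2 scale, adjusted p = 0.0022 and 1.2e-04. In contrast, 6720427I07Rik, with let-7d, let-7f-1 and let-7a-1, rose by 0.54 ± 0.20 in wildtype and had a log2FC of 0.47 ± 0.19 in KO, under the fold threshold. Mature microRNAs were not measured here, since total RNA libraries report the host transcript. The sequences of the main arms of these hosts, as RefSeq lists them, are given 5′ to 3′ with the seed, bases 2 to 8, in capitals, because the seed sets which messages a microRNA binds.
miR-17-5p of Mir17hg: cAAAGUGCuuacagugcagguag
miR-20a-5p of Mir17hg: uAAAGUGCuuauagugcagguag
miR-18a-5p of Mir17hg: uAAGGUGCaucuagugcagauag
miR-19a-3p of Mir17hg: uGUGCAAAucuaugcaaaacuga
miR-19b-3p of Mir17hg: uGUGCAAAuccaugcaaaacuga
miR-92a-3p of Mir17hg: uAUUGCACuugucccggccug
miR-22-3p of Mir22hg: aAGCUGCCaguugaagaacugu
miR-191-5p of 4833445I07Rik: cAACGGAAucccaaaagcagcug
miR-425-5p of 4833445I07Rik: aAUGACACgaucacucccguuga
let-7c-5p of Lncppara: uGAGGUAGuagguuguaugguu
let-7b-5p of Lncppara: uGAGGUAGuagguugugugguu
let-7d-5p of 6720427I07Rik: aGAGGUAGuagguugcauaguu
let-7f-5p of 6720427I07Rik: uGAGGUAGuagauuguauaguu
let-7a-5p of 6720427I07Rik: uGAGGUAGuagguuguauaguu
The Mir17hg cluster carries 4 different seeds among these arms, with miR-17-5p and miR-20a-5p sharing one and miR-19a-3p and miR-19b-3p another. The 5 let-7 arms shown share 1 seed, so Lncppara and 6720427I07Rik, which moved in opposite directions in wildtype, hold microRNAs with the same seed.

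Of the list of lncRNAs described in inflammation, 5 of 13 are members (AW112010, Neat1, Mir22hg, Lncpint and Gas5). In wildtype 3 of the 5 rose and in KO 4 of the 5 did, where 18.4% and 20.1% of all genes rose. AW112010 and Mir22hg averaged under 10 CPM at baseline and had to be higher after LPS. Of the 3 members at or over 10 CPM in both conditions, 1 rose in wildtype and 2 in KO, and nothing is read from these counts. Lncpint, a p53-induced RNA, did not pass in either genotype, with 0.34 ± 0.27 and 0.57 ± 0.25, though in KO it passed under 4 alternative settings. Of the 8 listed lncRNAs under the level threshold, Mir155hg, Morrbid, Mirt2, Ptgs2os and Ptgs2os2 rose in both genotypes, Mirt1 did not pass and Dnmt3aos was too low to be tested. Trp53cor1, also known as lincRNA-p21, fell in both, from 15.5 and 13.9 CPM at baseline to 2.12 ± 0.54 and 1.60 ± 0.48 CPM after LPS in wildtype and KO, with log2FC values of -2.87 and -3.12. Mir155hg, the host of the microRNA most linked to LPS, averaged 2.40 CPM. Its mean was 0.026 CPM in wildtype and 0.084 CPM in KO at baseline, under the level of 3 counts, and 4.84 ± 3.74 and 4.60 ± 3.11 CPM after LPS, so that no fold is given. All 4 listed lncRNAs that share sequence with ribosomal RNA were not matched by name and were not analysed here.

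The next question was how members move with the protein-coding gene beside them. Of the 158, 55 overlap a protein-coding gene on the opposite strand, 32 overlap one on the same strand, 15 start within 5 kb downstream of one on the same strand, 15 have starts that diverge from one, 10 lie otherwise, and 31 have none within 5 kb. For same-strand overlap, the log2FC after LPS in wildtype of lncRNA and neighbour correlated with Pearson's r of 0.79 across 30 pairs, and for downstream same-strand starts with 0.85 across 14 pairs. It was 0.24 across 51 opposite-strand pairs and 0.23 across 15 diverging pairs. In KO the values were 0.75, 0.88, 0.28 and 0.19. The classes lay closer together by rank, with Spearman's rho of 0.62, 0.76, 0.33 and 0.39 in wildtype and 0.59, 0.86, 0.33 and 0.36 in KO. The pairs share libraries, and neighbours can share reads, so these are descriptions across genes with no test. Of the same-strand overlapping pairs 9 share exon bases, the 2 Snhg4 models among them. Of the 51 members opposite to a tested gene, 49 share exon bases with that gene. The sources do not say whether the counting used the strand of the reads.

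Gm15503, inside Rgs10 (a regulator of G-protein signalling that is high in microglia), fell by 1.94 and 2.28 where Rgs10 fell by 2.16 and 2.15. Gm57137, inside Tlr4, fell by 0.96 and 1.12 where Tlr4, the LPS receptor, fell by 1.06 and 1.09. Gm17024, inside Ifrd1, rose by 2.46 and 2.81 where Ifrd1 rose by 2.10 and 2.45, and Gm49838, inside Fkbp5, a glucocorticoid target, rose by 1.57 and 0.92 where Fkbp5 rose by 2.25 and 2.22. None of these 4 shares exon bases with its neighbour. AI504432, which starts 885 bases beyond the end of Kcna3, the potassium channel of activated microglia, rose from 7.38 ± 1.55 to 51.2 ± 27.6 CPM in wildtype, a log2FC of 2.79, and Kcna3 rose by 2.703. In total RNA, an lncRNA inside or just behind a gene on its strand and unspliced or read-through RNA of that gene give the same reads and cannot be told apart.

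In other pairs the members differed in direction. E230029C05Rik, within Picalm on the same strand, fell from 179 ± 20 to 90.0 ± 35.6 CPM in wildtype while Picalm had a log2FC of 0.83, and Mir22hg, which shares 206 exon bases with Tlcd2, rose while Tlcd2 fell by 0.95. Zeb2os, opposite to the transcription factor Zeb2, fell by 0.64 in wildtype, while Zeb2 rose by 1.16. Its log2FC in KO was -0.35, adjusted p = 0.14. Brip1os fell by 0.74 and 0.61 while Brip1 rose by 1.08 and 1.001. In contrast, Gm33858, opposite to the fractalkine receptor gene Cx3cr1, fell by 1.42 in wildtype, where Cx3cr1 fell by 1.03. Gm20186, whose start lies 14 bases from Lsm8, rose by 1.70 ± 0.19 and 1.94 ± 0.18 while Lsm8 stayed at -0.21 and -0.01.

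**Figure D3:**
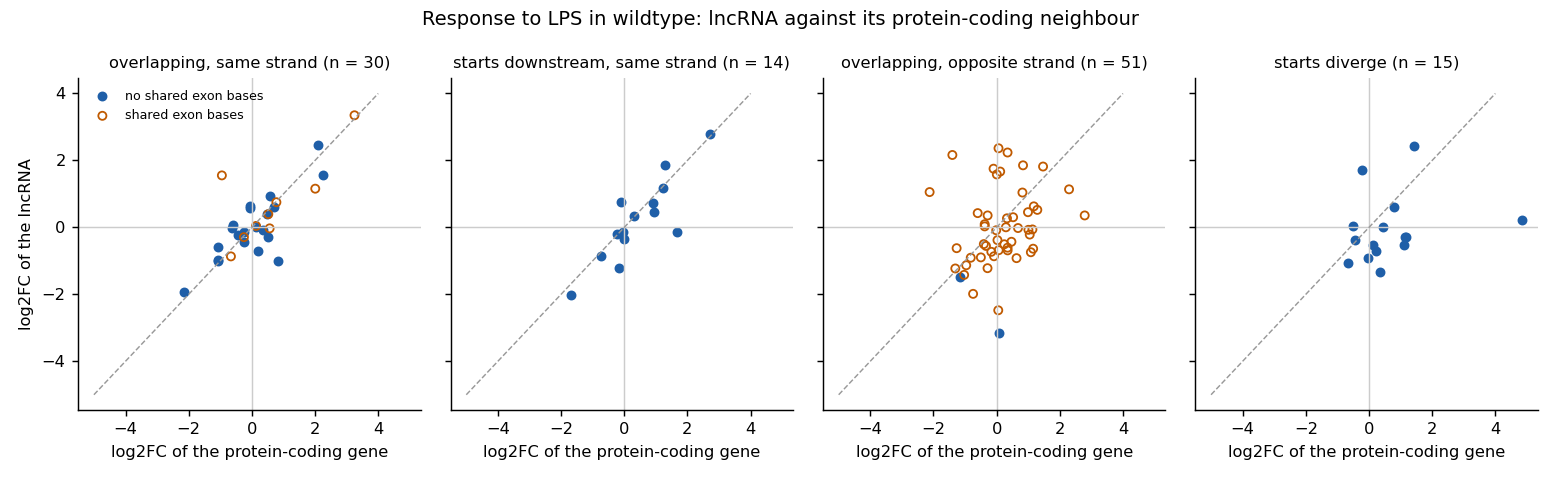
Log2FC after LPS in wildtype of each lncRNA (vertical) against its protein-coding neighbour (horizontal), with 1 panel for each position and open circles for pairs that share exon bases. The 30 same-strand and 14 downstream pairs lie nearer to the dashed line of equal change (Pearson r 0.79 and 0.85) than the 51 opposite-strand and 15 diverging pairs (0.24 and 0.23).

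Transcripts known from neurons were among the members that varied most between mice of 1 group. Meg3, an imprinted RNA, Rian, Miat, Snhg11 and Snhg14 had a within-group SD between 0.86 and 1.02 on the log2 scale, against a median of 0.41 over the members. None passed any test after LPS, with log2FC values between -0.38 and -0.29 in wildtype and between -0.32 and -0.12 in KO. Meg3 ran from 18.7 to 125 CPM in wildtype baseline libraries, from 42.8 to 122 after LPS, from 37.7 to 118 in KO baseline and from 10.7 to 113 in KO after LPS. All 5 lncRNAs had their lowest level in the KO LPS library 5 and their next lowest in the wildtype baseline library 1. These libraries also held the lowest summed neuron markers, 36.7 and 34.6 CPM, where the others ran from 43.6 to 403 CPM. Markers of other brain cells did not follow this order throughout. Astrocyte markers were lowest in KO LPS library 5, at 439 CPM, but were at 830 CPM in wildtype baseline library 1 and lower, at 691 CPM, in KO baseline library 5. Oligodendrocyte markers were lowest in wildtype LPS library 1, at 584 CPM, and stood at 1791 CPM in KO LPS library 5. The highest neuron marker sum was in KO LPS library 1, where Meg3 stood at 113 CPM, below wildtype baseline library 4 with 125 CPM and 109 CPM of neuron markers. Peg13, another imprinted RNA of the brain, fell from 71.2 ± 8.6 to 39.05 ± 5.37 CPM in wildtype and from 70.9 ± 8.5 to 44.7 ± 4.8 CPM in KO, adjusted p = 1.1e-05 and 9.7e-05.

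**Figure D4:**
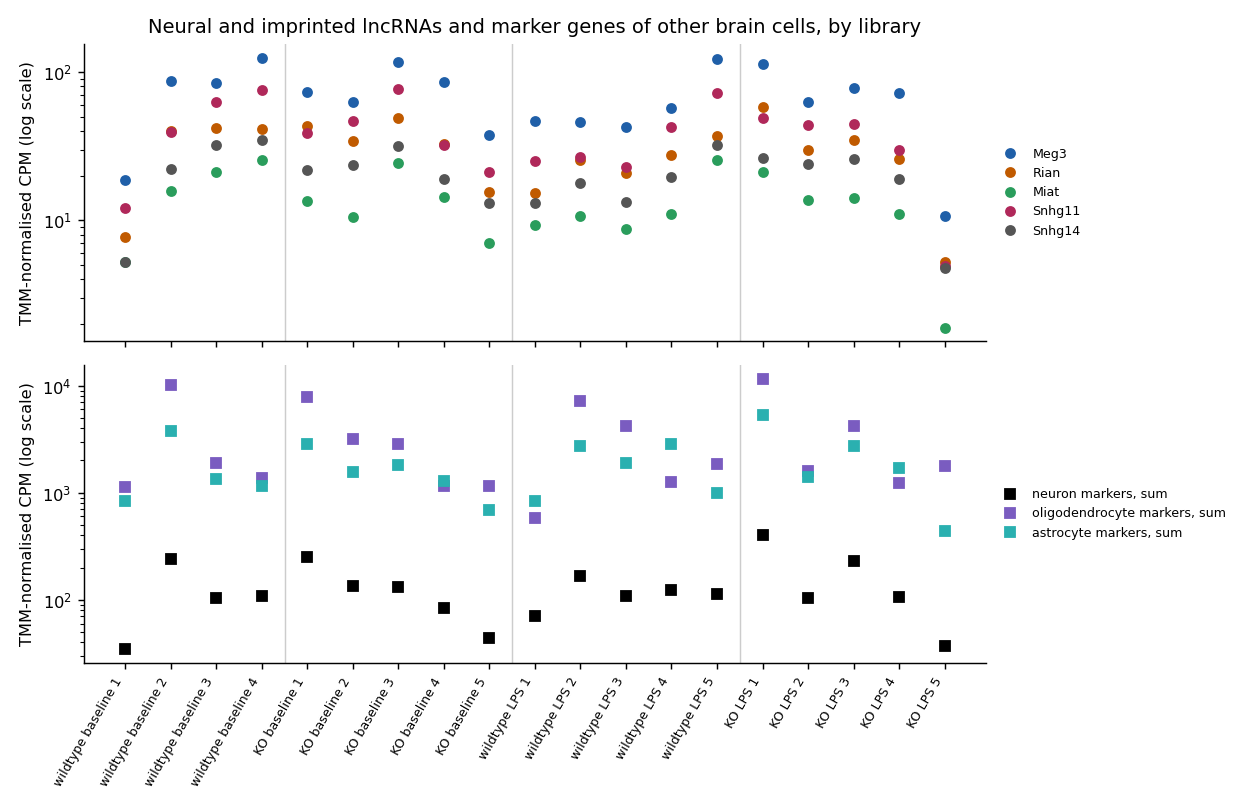
CPM on a log scale of 5 lncRNAs known from neurons (top) and of the summed markers of neurons, oligodendrocytes and astrocytes (bottom) in each library, ordered by group. Wildtype baseline library 1 and KO LPS library 5 are the 2 lowest for all 5 lncRNAs and for the neuron markers.

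The last question was whether the lncRNAs differ between *PARK7*/DJ-1 KO and wildtype mice. By unadjusted p under 0.05 and |log2FC| of at least 0.5, no member was higher in KO after LPS and 1 was lower, where 0.544% and 0.763% of all genes were. At baseline no member was higher and 2 were lower, where 0.224% and 0.576% of all genes were. No member passed an adjusted p of 0.05 in edgeR in either comparison, where 2 and 1 genes did over all genes. At an unadjusted p under 0.05 with any fold there were 2 members after LPS and 3 at baseline, Gm42031 and Gm56842 being the ones outside the fold threshold. As shares, the lower calls are 0.633% of the members after LPS and 1.27% at baseline, from 1 and 2 lncRNAs. For the interaction, no member and no gene passed an adjusted p under 0.05 (0.0% of all genes).

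AW112010 is the member that was lower in KO after LPS, at 60.9 ± 11.1 CPM (n = 5) against 102 ± 76 CPM in wildtype (n = 5). The log2FC was -0.74 ± 0.34, with an adjusted p of 1.0 in edgeR. The groups overlapped, and a two-sided exact test that permuted the genotypes gave p = 0.41, where the smallest possible value is 0.0079. Without the wildtype LPS library 5 the log2FC was -0.27, and without library 4 -0.58, and in neither case did it pass the unadjusted threshold, nor did it without KO LPS library 1, 2 or 3.

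Rab10os and Snhg5 are the members that were lower in KO at baseline. Rab10os, antisense to the small GTPase gene Rab10 on chromosome 12, had 27.9, 31.0, 28.8 and 36.0 CPM in wildtype and 18.5, 22.4, 18.8, 28.02 and 20.3 CPM in KO at baseline, so that 1 KO library reached into the wildtype range. Its log2FC was -0.52 ± 0.14, which came to between -0.42 and -0.49, under the fold threshold, without wildtype baseline library 4 or KO baseline library 1, 3 or 5. The exact two-sided permutation test gave p = 0.032, the smallest possible being 0.016. After LPS it had 24.6, 23.2, 23.1, 21.3 and 22.5 CPM in wildtype and 22.6, 23.8, 29.2, 26.96 and 35.2 CPM in KO. Its log2FC after LPS was -0.43 ± 0.14 in wildtype, adjusted p = 0.020, and 0.35 ± 0.13 in KO, adjusted p = 0.040. Rab10os had the smallest interaction p of the members, with a difference of 0.78 ± 0.20 between the genotypes, but its adjusted interaction p was 0.9999 over all genes. Rab10, which shares 842 exon bases with it, had log2FC values of 0.47 and 0.44 after LPS, under the fold threshold, and of 0.04 in KO against wildtype at baseline. 4933433G15Rik and Gm57214 followed by interaction p, with differences of 0.99 ± 0.51 and 0.89 ± 0.47. Both rest on KO LPS library 5, which held 38.98 CPM of 4933433G15Rik and 60.9 CPM of Gm57214 while the other libraries of its group stayed at or under 13.9 and 26.1 CPM. Without it the differences were 0.41 and 0.39, unadjusted p = 0.25 and 0.26. Snhg5 had 10.2, 9.46, 8.15 and 10.4 CPM in wildtype and 6.38, 6.70, 5.44, 6.70 and 8.26 CPM in KO at baseline, so that 1 KO library was above the lowest wildtype library. Its log2FC was -0.51 ± 0.22 and its permutation p 0.032, exact and two-sided. The call of Snhg5 was lost without wildtype baseline library 1, 2 or 4 or KO baseline library 1 or 3, where the log2FC ran from -0.51 to -0.43. No other listed snoRNA host passed at baseline. All these members were chosen because they passed in edgeR, so the permutation tests on the same libraries add no independent evidence.

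**Figure D5:**
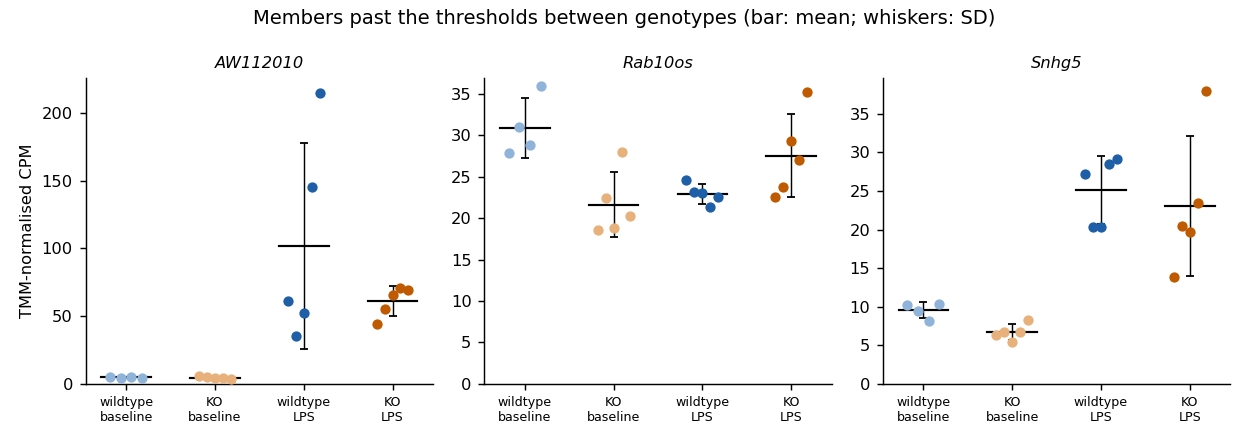
CPM of AW112010, Rab10os and Snhg5 in every library, by group; points are mice, bars the mean and whiskers the SD. In AW112010, 2 wildtype LPS libraries at 145 and 215 CPM lie above the KO LPS libraries, which reach 70.5 CPM.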

How the data were processed

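The authors isolated CD11b+ cells, prepared stranded, ribosomal RNA-depleted total RNA libraries, trimmed reads with Cutadapt and mapped them with STAR 2.7.9a to GRCm39 with the Ensembl 108 annotation; strand use in the counting is not given in the sources used here. The deposited values are raw counts, not normalised. GENCODE release 39 gave gene types, coordinates and neighbours, and small-RNA and promoter sequences came from RefSeq (GRCm38.p6). Of 38 microRNAs of the members, 33 matched it, and of 158 members 72 had a promoter.

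Counts of all genes were analysed with edgeR 4.0.16 in R 4.3.3 (filterByExpr, TMM, 1 quasi-likelihood fit with 4 groups), which left 18739 genes. Adjusted p-values are Benjamini-Hochberg values over all genes, and SE is |log2FC| divided by the square root of F. CPM are TMM-scaled, except in the level rule, which used column sums. Exact permutation tests used log2 CPM with a prior count of 2. A neighbour is a protein-coding gene that overlaps or starts within 5 kb. Members and lists were chosen with earlier results of these data known. Genes were named by list, level, size of the LPS response, genotype or interaction p, or position at the level threshold. Further members were named as examples after their values were seen, among them the neighbour pairs and annotated microRNA hosts. The fit was checked on simulated counts. Libraries of 1 group differed by more than sampling noise, and each was 1 mouse. Intervals of depth cover counting error only. Alternatives were other scaling, filters, DESeq2 1.42.0, blocks, covariates, thresholds and left-out libraries.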

Additional observations from a re-analysis of the deposited data

Results flagged for a closer look

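Across 204 groups of 4 or 5 libraries of the 51 members named by the rule, 1 library stood far from the others of its group in 17 cases. Chance alone gives about 1 in 20 groups, and no case was weighed further. In wildtype LPS library 1, Gm2629 stood at 151 CPM where the others reached 89.9, Mir142hg at 146 CPM, 4933433G15Rik at 18.01 CPM and Gm57375 at 1.97 CPM. In wildtype LPS library 5, Meg3 stood at 122 CPM and Miat at 25.4 CPM, where the others reached 57.6 and 11.1 CPM. In KO LPS library 5, 4933433G15Rik stood at 38.98 CPM and Gm56745 at 4.62 CPM. Other high values were Gm43305 at 80.2 CPM in KO LPS library 3, Gm30329 at 4.00 CPM in KO LPS library 2, Dubr at 17.5 CPM in KO baseline library 1 and Gm56745 at 30.3 CPM in KO baseline library 2. Low values among the wildtype baseline libraries were Rian at 7.71 CPM in library 1, where the others started at 40.2 CPM. In library 2 they were Gm2629 at 204 CPM, Snhg15 at 12.7 CPM and Gm57375 at 13.7 CPM, and in library 4 Oip5os1 at 129.5 CPM.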

How the results depend on the processing

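Of the values of named members, 72 passed. None of the 72 changed direction, 62 passed under every alternative run, and 10 were lost under at least 1. Of the 36 that did not pass, 9 passed under at least 1 alternative, Neat1 in wildtype under 6 and Lncpint in KO under 4. With |log2FC| of at least 1, 34 members rose and 25 fell in wildtype and 37 and 27 in KO, against 2053 and 2026, and 2293 and 2224, of all 18739 genes. Higher in KO after LPS was 1 member with DESeq2 size factors, 1 with DESeq2 and 1 with the replicate number as a block. Lower in KO after LPS were 0 with only the groups compared, 0 with the block, 0 by adjusted p, and 2 without wildtype baseline library 1 and KO LPS library 5 (an alternative chosen after seeing the data). Lower in KO at baseline were 5 with only the groups compared, 4 with the replicate block, 4 with other-cell markers as a covariate and 0 by adjusted p. For the interaction, 1 member passed an unadjusted p, and no fit of only the groups compared was possible, since it needs all 4 groups. Leaving out 1 library gave 37 to 42 higher and 36 to 48 lower in wildtype, 44 to 57 and 38 to 45 in KO, 0 to 3 higher and 0 to 3 lower in KO after LPS, 0 to 0 higher and 0 to 4 lower at baseline, and 0 for the interaction. Without KO LPS library 1, 3 were higher and 0 lower in KO after LPS, without library 3 1 and 0, and without library 5 3 were lower. At baseline 0 were lower without wildtype library 4, KO library 1 or KO library 3, and 4 without KO library 4. The causes were not tested. Replicate numbers were not used as pairs in the main fit, since not every correlation of same-numbered deviations was over 0.1. They ran from -0.04 to 0.58 (mean 0.33) for LPS in wildtype and from 0.03 to 0.54 (mean 0.25) in KO. Between genotypes they ran from -0.57 to 0.30 after LPS and from -0.29 to 0.30 at baseline. The own number correlated best in 2 of 4 wildtype and 3 of 5 KO pairs. This rule cannot exclude that mice of the same number share something, which was not tested. With the replicate block 41 members rose and 49 fell in wildtype, 52 and 42 in KO. The lowest count of a member in a library was 5, so the values of members that fell to a few CPM carry the most counting error.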
